A study of Mus musculus with 13 samples.

Results

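The nuclear genes for subunits of respiratory complexes II and III and of ATP synthase were examined together with cytochrome c, the mobile carrier that complex III reduces. The set was chosen by name and holds 31 of the 36109 genes that could be matched in the deposited tables. It has 4 complex II genes, 9 complex III genes, cytochrome c and 17 ATP synthase genes. The ATP synthase genes encode 5 subunits of the catalytic F1 head, 4 of the peripheral stalk, 3 copies of subunit c, 4 supernumerary membrane subunits and the inhibitor Atp5if1. All 31 passed the filter on low counts in both tissues.

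RNA of mice was sequenced in 4 Hmox2+/+ and 3 Hmox2-/- libraries of whole heart. Aortic endothelial cells (ECs) gave 3 Hmox2+/+ and 3 Hmox2-/- libraries. The paper states n = 3 per strain for heart tissue, whereas 4 Hmox2+/+ heart libraries were deposited, and all 4 were used here. Hmox2 encodes heme oxygenase 2, an enzyme that cleaves heme, and no restriction of the deletion to a cell type is described. The Hmox2+/+ mice were littermates, all mice were kept in room air, and the sequenced mice are described as young, with the strain background not given in the sources used here. Aortic EC RNA was taken by flushing the lumen of the vessel with lysis reagent, so these libraries were not sorted cells. The comparison asks which subunit mRNAs differ between genotypes within a tissue, and whether the heart and the aortic ECs differ in the same way.

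Complex II oxidizes succinate within the citric acid cycle and passes the electrons to ubiquinone without pumping protons. Complex III passes electrons from ubiquinol to cytochrome c and pumps protons, and ATP synthase lets the protons back through a rotating ring of c subunits to drive ATP formation in the F1 head. Complex II is encoded wholly in the nucleus, whereas cytochrome b of complex III (mt-Cytb) and subunits a and A6L of ATP synthase (mt-Atp6 and mt-Atp8) are encoded in mitochondrial DNA. Heart muscle is among the tissues richest in these complexes.

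Total estimated counts were 26067147 to 31619776 per library, except for Hmox2+/+ heart 1 with 7268626. Hmox2 itself was 37.3 to 42.5 CPM (counts scaled to the normalized library size) in hearts of Hmox2+/+ mice against 7.53 to 8.90 CPM without the gene, and 63.9 to 76.2 against 12.6 to 14.7 CPM in the aortic ECs. The aortic EC libraries held endothelial markers but also markers of other cells. The brown adipocyte marker Ucp1 was 1340 to 2712 CPM in all 6 of them and at most 0.142 CPM in heart tissue. Ddx3y, a Y-linked gene, was 61.7 to 86.4 CPM in 4 aortic EC libraries, the 3 of Hmox2+/+ mice and Hmox2-/- ECs 1. It was 0.920 and 1.03 CPM in Hmox2-/- ECs 3 and 2. In heart tissue it was 61.6 to 86.5 CPM in Hmox2+/+ and 37.0 to 50.9 CPM in Hmox2-/- libraries. The labels do not give the sex, and in Hmox2-/- ECs 2 and 3 a difference by sex cannot be told apart from one by genotype.

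The sequences of subunit c and subunit gamma are shown because 2 of the results turn on them. Subunit c is encoded by 3 genes, whose products differ only in the leading part that is removed on import into the mitochondrion. The last 78 codons of the 3 reading frames encode the same residues, yet 63 of their 234 bases (26.9%) differ among the genes. Reads from this stretch, like those from the parts outside it, can thus differ between the genes. The first 25 of these codons are given here from the reference transcripts of GENCODE M39, with capitals at the 22 bases that are not the same in all 3.
Atp5mc1: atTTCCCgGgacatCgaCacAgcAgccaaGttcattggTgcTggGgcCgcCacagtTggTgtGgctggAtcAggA
Atp5mc2: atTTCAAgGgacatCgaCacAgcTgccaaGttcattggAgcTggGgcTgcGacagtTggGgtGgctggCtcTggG
Atp5mc3: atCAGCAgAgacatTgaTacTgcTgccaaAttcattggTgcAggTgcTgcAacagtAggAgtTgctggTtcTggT

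The gene for subunit gamma, Atp5f1c (chromosome 2, 10060827 to 10085350, minus strand of GRCm39), has 2 abundant transcripts. The shorter has 9 exons. The longer has 10, the additional one being exon 9, a 37-base exon at chr2:10061581-10061617 that carries its own stop codon, shown in capitals. With the exon the reading frame has 298 codons, and without it 297.
Atp5f1c exon 9: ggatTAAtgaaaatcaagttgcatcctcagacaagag

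In heart tissue, 25 of the 31 mRNAs were higher in Hmox2-/- than in Hmox2+/+ mice and none was lower (edgeR quasi-likelihood test, Benjamini-Hochberg adjusted p of at most 0.05 over 13816 genes). Of all genes tested, 17.2% were called higher and 16.2% lower. The median log2 fold change of the 31 was 0.60, against -0.01 over all genes tested, and all 31 estimates were above 0, as were 49.2% of all genes, with 50.8% below. At an unadjusted p under 0.05, 27 were higher and none lower, against 22.7% and 22.1% of all genes. In 24 of the 31, every Hmox2-/- heart lay above every Hmox2+/+ heart, against 20.6% of all genes, and in none did every one lie below, against 19.8%. Only Atp5f1e also passed a log2 fold change of 1, which 2.66% of all genes did upwards and 4.05% downwards.

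The size of the effect in heart tissue followed the length of the mRNA. Over the 31 genes, Pearson's r between the log2 fold change and the log2 length was -0.77 and Spearman's rho was -0.75. The same slope was present in the whole table, where rho was -0.51 over 13816 genes. Genes under 500 bases had a median log2 fold change of 0.69 with 48.6% called higher, and genes of 3000 bases or more had a median of -0.25 with 3.91% called higher. When a trend with length and GC content was removed from each library, 7 members were called higher and 2 lower, against 1799 and 1734 of 13816 genes. The median of the 31 fell to 0.11. RNA integrity values were not used here, and the part of RNA quality in the length trend was not tested.

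**Figure D1:**
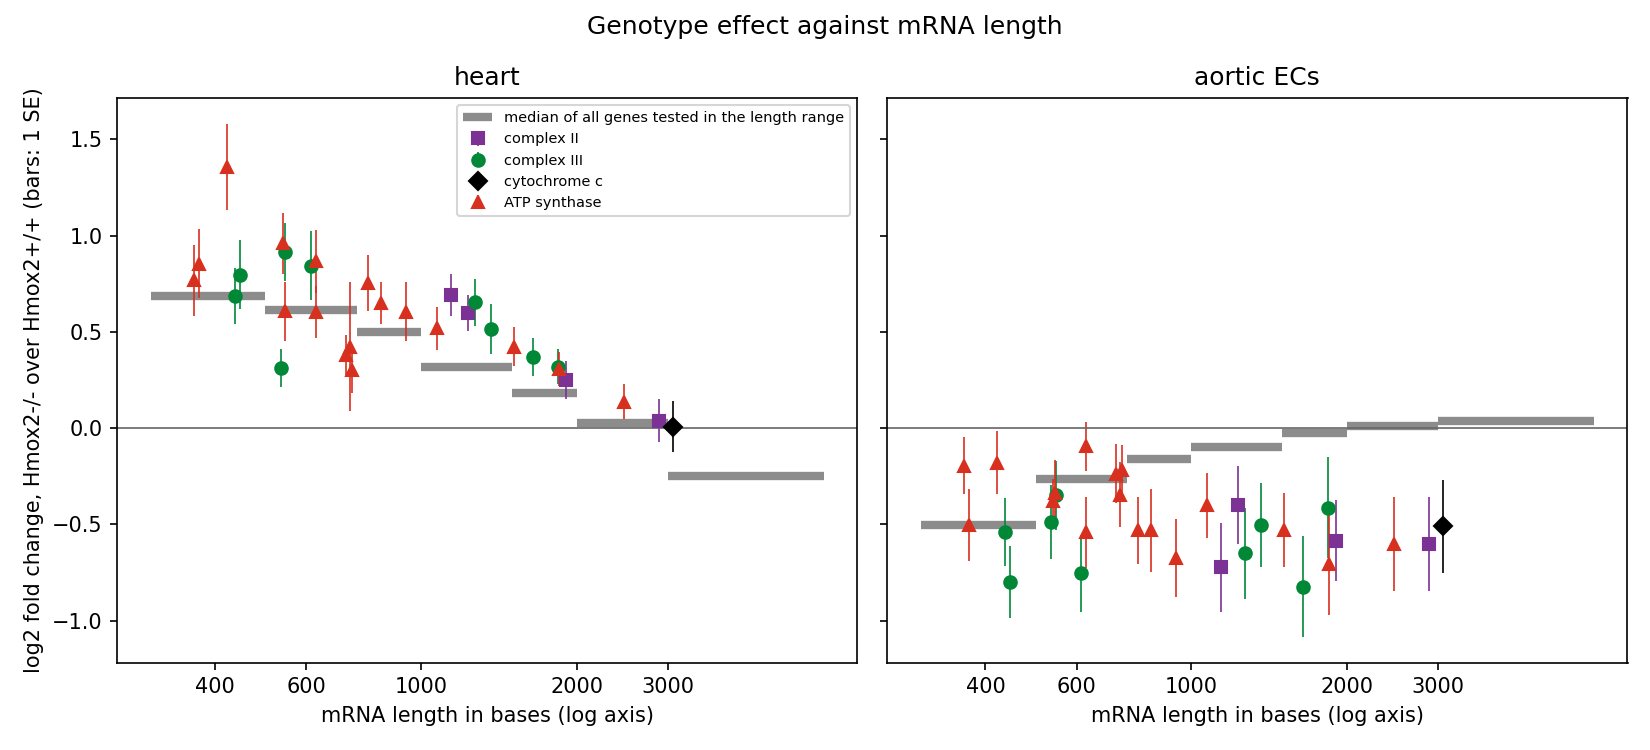
Log2 fold change of each of the 31 mRNAs (bars, 1 SE) against mRNA length in bases on a log axis, in heart tissue and in aortic ECs, with grey lines at the median of all genes tested in each length range. In heart tissue the members decline with the grey steps, with those from 750 bases upwards at or above them. Among shorter members, Uqcrb, Atp5pf and Atp5mc3 lie well below their step and Atp5f1e well above. Atp5mc2 lies below its step by less than its SE. In aortic ECs the longer members lie below the grey lines.

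Of complex II, the iron-sulfur subunit Sdhb (chromosome 4, 140688502 to 140709380, plus strand) was 509.9, 501, 476 and 523 CPM in Hmox2+/+ hearts and 926, 814 and 696 CPM in Hmox2-/- hearts. The genotypes did not overlap, and the log2 fold change was 0.69 ± 0.11 (SE, edgeR adjusted p = 0.00136). Sdhd, a membrane anchor, was 336 to 352 CPM in Hmox2+/+ hearts against 475 to 572 CPM in those of Hmox2-/- mice, a log2 fold change of 0.60 ± 0.09 with the same adjusted p in edgeR. The flavoprotein Sdha, which carries the succinate site and has the longest mRNA of the complex at 2884 bases, was 1182 to 1235 CPM in Hmox2+/+ hearts and 1033, 1316 and 1379 CPM in Hmox2-/- hearts, so that the groups overlapped. Its log2 fold change was 0.04 ± 0.11 and was not called, and neither was that of the other anchor Sdhc at 0.25 ± 0.10 (edgeR adjusted p = 0.0718). With the length and GC trend removed, Sdhb was at 0.28 ± 0.06 and Sdhd at 0.26 ± 0.06, both still called higher (edgeR adjusted p of 0.00704 and 0.0095), and Sdha and Sdhc were not called.

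All 9 nuclear genes of complex III were higher in Hmox2-/- hearts. The hinge protein Uqcrh, which helps cytochrome c dock, was 318 to 361 CPM in Hmox2+/+ hearts and 821, 606 and 486 CPM in Hmox2-/- hearts, 0.91 ± 0.15 on the log2 scale (edgeR adjusted p = 0.00168). Of the small subunits, Uqcrq rose by 0.84 ± 0.18, Uqcr11 by 0.80 ± 0.18 and Uqcr10 by 0.69 ± 0.15 on the same scale. The catalytic subunit cytochrome c1 (Cyc1) was 565 to 590.1 CPM in Hmox2+/+ hearts and 1065, 939.6 and 730.2 CPM in Hmox2-/- hearts, 0.65 ± 0.12 (edgeR adjusted p = 0.00314). The Rieske iron-sulfur protein Uqcrfs1 rose by 0.51 ± 0.13. It was the only complex III gene whose libraries overlapped, since Hmox2+/+ heart 4 at 631 CPM stood above Hmox2-/- heart 3 at 628 CPM.

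The core proteins and Uqcrb changed least within complex III. Log2 fold changes were 0.37 ± 0.10 for Uqcrc1, 0.32 ± 0.09 for Uqcrc2 and 0.31 ± 0.10 for Uqcrb (edgeR adjusted p of 0.0154, 0.0215 and 0.0304). Uqcrb lay below the length trend: its mRNA has 535 bases, where the median of all genes between 500 and 750 bases was 0.61. In that range Atp5pf (0.30) and Atp5mc3 (0.38) also lay well below it, and Atp5mc2 (0.42 ± 0.34) lay within 1 SE of it. These mRNAs, of 717 to 736 bases, are near the upper end of the range. The median of all genes between 750 and 1000 bases was 0.50. Under the removal of the length and GC trend, Uqcrh and Cyc1 were still higher, at 0.29 ± 0.07 and 0.27 ± 0.06 (edgeR adjusted p of 0.0100 and 0.0111), and the other 7 genes of complex III were not called.

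Cytochrome c (Cycs, 3067 bases) was 330.2 to 417 CPM in Hmox2+/+ hearts and 478, 339.9 and 354 CPM in Hmox2-/- hearts, a log2 fold change of 0.01 ± 0.13. The value is limited by a near-identical gene. Gm10053, 96.6% of whose 31-base words also occur in Cycs, took 2495 to 16981 estimated counts per library. It had a log2 fold change of 0.34 ± 0.09 in heart tissue (edgeR adjusted p = 0.0140), and reads of the 2 cannot be assigned with certainty.

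Of ATP synthase, 14 of 17 genes were higher in Hmox2-/- hearts. In the F1 head, Atp5f1e (subunit epsilon, chromosome 2, 174302861 to 174305906, minus strand) was 166, 171, 155 and 159 CPM in Hmox2+/+ hearts and 631, 356 and 265 CPM in Hmox2-/- hearts. Its log2 fold change of 1.36 ± 0.22 was the largest of the 31 (edgeR adjusted p = 0.0017). The 3 Hmox2-/- hearts differed among themselves by more than 2-fold in this gene. With the length and GC trend removed, the value was 0.49 ± 0.10 (edgeR adjusted p = 0.00477).

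The other F1 subunits followed in order of decreasing effect. Subunit delta (Atp5f1d) rose by 0.61 ± 0.15, subunit gamma (Atp5f1c) by 0.52 ± 0.11 and the catalytic subunit beta (Atp5f1b) by 0.31 ± 0.09 on the log2 scale (edgeR adjusted p of 0.0117, 0.00664 and 0.0204). None of these 3 calls held with the length and GC trend removed, where the values were 0.090 for Atp5f1d, 0.12 for Atp5f1c and 0.11 for Atp5f1b (edgeR adjusted p of 0.471, 0.168 and 0.201). Atp5f1b was the most abundant of the 31 mRNAs per length in heart tissue of either genotype, apart from Atp5mc1 in Hmox2-/- heart 1, with 1968 to 2516 TPM (a level per transcript length) in Hmox2+/+ hearts. Subunit alpha (Atp5f1a), which alternates with beta in the head, was 1769.7 to 1938 CPM in Hmox2+/+ hearts and 1985 to 2118 CPM in Hmox2-/- hearts. These groups did not overlap, but the log2 fold change of 0.14 ± 0.09 was not called (edgeR adjusted p = 0.263).

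In the peripheral stalk, which holds the head still against the rotor, Atp5po rose by 0.65 ± 0.11, Atp5pd by 0.60 ± 0.13 and Atp5pb by 0.42 ± 0.10 on the log2 scale (edgeR adjusted p of 0.00183, 0.00707 and 0.00986). With the length and GC trend removed, Atp5pb was still called at 0.21 (edgeR adjusted p = 0.0295), whereas Atp5po at 0.11 and Atp5pd at -0.041 were not. Atp5pf was 402 to 411 CPM in Hmox2+/+ hearts and 598, 497 and 403 CPM in Hmox2-/- hearts, 0.30 ± 0.12, and was not called. Under removal of the length and GC trend its sign turned, to -0.20 ± 0.06 (edgeR adjusted p = 0.0332). The 4 supernumerary subunits Atp5me, Atp5mf, Atp5mg and Atp5mk, which join the dimers of the enzyme or its membrane base, all rose, by 0.61 to 0.85, and none was called with that trend removed.

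The transcripts of Atp5mg carry a further limit. Gm10221, a processed pseudogene all of whose 31-base words occur in Atp5mg, was at 0 counts, rounded, in the 4 Hmox2+/+ hearts and in all 6 aortic EC libraries. It had 1496, 1012 and 890 estimated counts in the Hmox2-/- hearts. Atp5mk shares 91.5% of its words with Taf5, which held 15 to 208 counts per library.

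The inhibitor Atp5if1, a small protein that blocks the enzyme from running backwards when the membrane potential falls, was 59.0 to 68.3 CPM in Hmox2+/+ hearts and 161, 114 and 91.8 CPM in Hmox2-/- hearts. The groups did not overlap, and the log2 fold change was 0.96 ± 0.16 (edgeR adjusted p = 0.00174). With the length and GC trend removed it was 0.25 ± 0.08 (edgeR adjusted p = 0.0343).

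**Figure D2:**
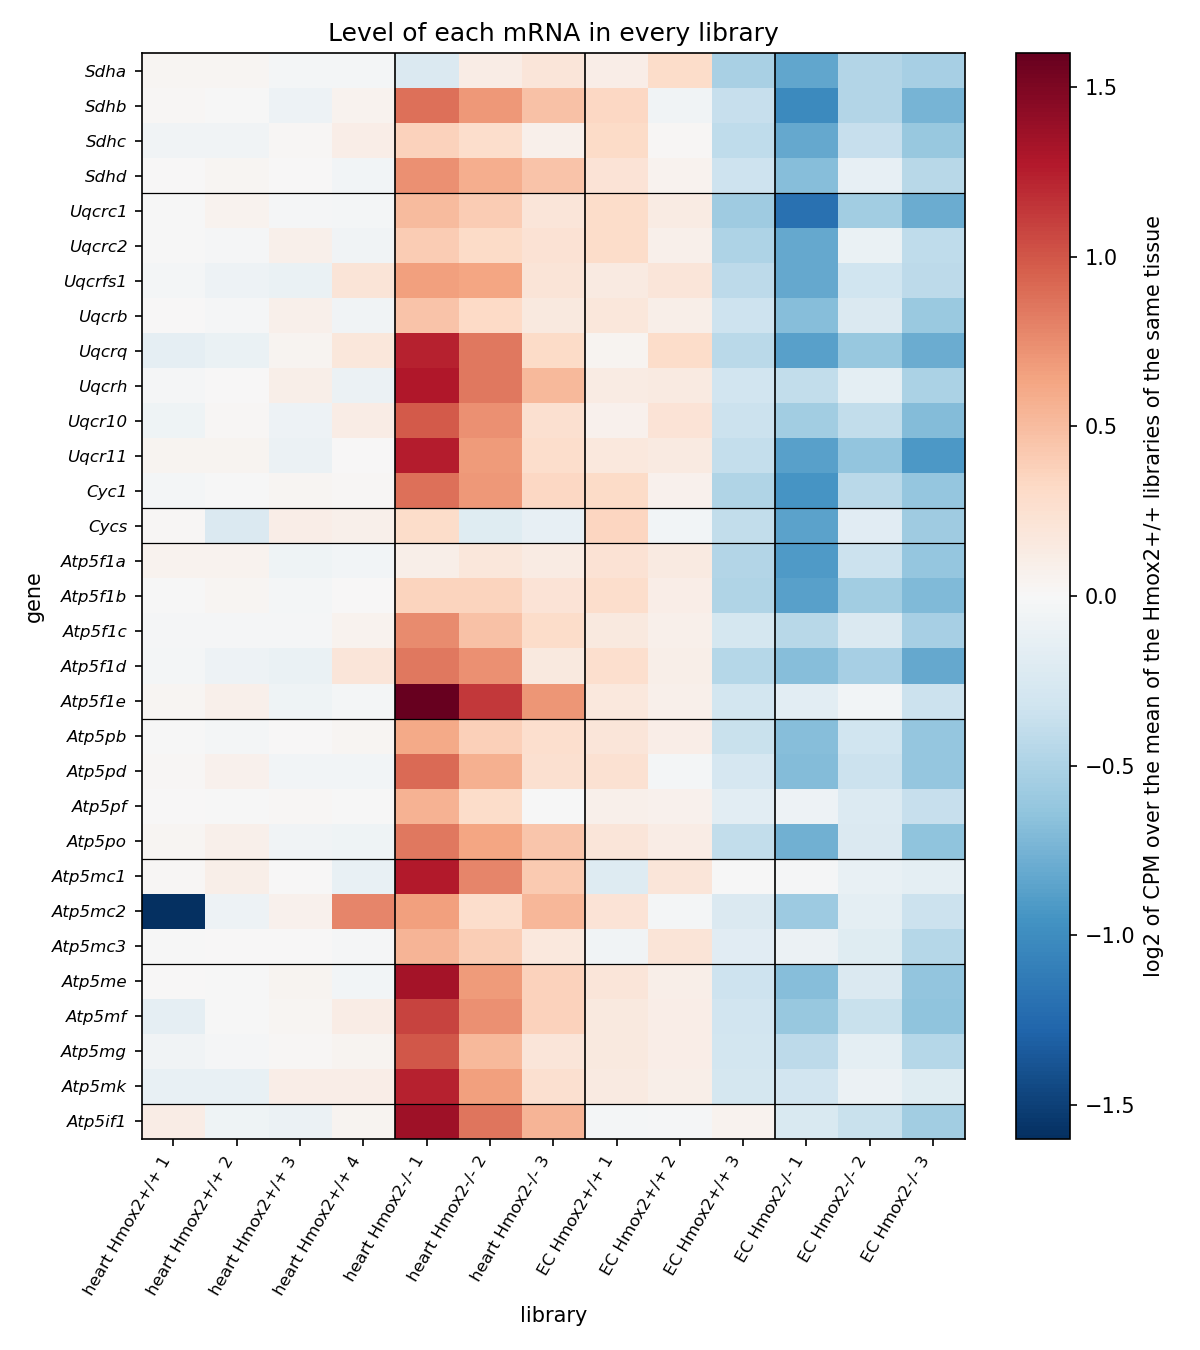
Log2 of CPM over the mean of the Hmox2+/+ libraries of the same tissue, for each of the 31 mRNAs (rows, grouped by complex) in each of the 13 libraries (columns). Hmox2-/- heart 1 is the darkest red column, and Hmox2+/+ ECs 3 is blue like the Hmox2-/- ECs.

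The libraries of a group were not alike. Hmox2-/- heart 1 had the highest CPM of the 3 Hmox2-/- hearts in 28 of the 31 genes and Hmox2-/- heart 3 the lowest in 27. Summed over the 31 genes, the level was 18735 to 19058 CPM in the 4 Hmox2+/+ hearts and 29161, 25839 and 22439.6 CPM in the Hmox2-/- hearts. Without Hmox2-/- heart 1, 24 genes were called higher with a median log2 fold change of 0.44, and without Hmox2-/- heart 2, 18 were. Of all genes, 1837 of 14054 and 1535 of 14070 were called higher in those fits. More cells of a type and more RNA per cell cannot be told apart in whole heart RNA.

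Some marker lists of cell types also differed between genotypes in heart tissue. All 5 erythroid markers tested (hemoglobin genes and Alas2) were higher in Hmox2-/- hearts, with the summed list at 183 to 341 CPM in Hmox2+/+ and 887 to 1456 CPM in Hmox2-/- hearts. Of 12 cardiomyocyte markers 6 were higher and 1 lower, with sums of 61471 to 65375 and 63847 to 71095 CPM. Of 10 endothelial markers 3 were higher and 1 lower, with sums of 566 to 678 CPM against 745 to 762 CPM. Of 8 smooth muscle markers 4 were higher and 1 lower, and of 8 macrophage markers 4 were higher and none was lower. The brown adipocyte list, which holds cytochrome oxidase subunits also made in muscle, summed to 527 to 605 CPM in Hmox2+/+ hearts. It summed to 1692, 1149 and 855 CPM in Hmox2-/- hearts 1 to 3, with 2 of 5 tested genes higher and 1 lower. Ucp1 was at 0 CPM in all 3. Within the Hmox2-/- hearts the brown adipocyte sums ranked like the summed members. So did the erythroid, smooth muscle, macrophage, fibroblast and white or shared adipocyte sums. White or shared adipocyte markers summed to 204 to 275 CPM against 200 to 331 CPM, with 1 of 6 tested genes higher and none lower. Of 7 fibroblast markers 1 was higher and 2 were lower, with sums of 564 to 666 CPM against 608 to 775 CPM. The skeletal muscle list summed to 124 to 257 CPM against 54.2 to 101 CPM, with 1 of 5 tested genes higher and 1 lower. The part of these cells in the subunit results was not tested.

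The mitochondrially encoded partners went the other way in heart tissue. mt-Cytb was 43317 to 52278 CPM in Hmox2+/+ hearts and 21536 to 26416 CPM in Hmox2-/- hearts, a log2 fold change of -0.99 ± 0.11 (edgeR adjusted p = 0.000111). mt-Atp6 was 26673 to 34872 and 21093 to 22072 CPM, -0.55 ± 0.11 (edgeR adjusted p = 0.00461), and mt-Atp8 was 1979 to 4383 and 1032 to 1350.3 CPM, -1.40 ± 0.22 (edgeR adjusted p = 0.00142). For all 3 genes the Hmox2-/- hearts lay below every Hmox2+/+ heart. mt-Atp8 (7766 to 7969) and mt-Atp6 (7927 to 8607) overlap in mitochondrial DNA, so their separate values depend on how shared reads were split. The 13 mitochondrially encoded protein genes together took 37.6% to 44.3% of the counts in the Hmox2+/+ group and 22.5% to 27.2% in the Hmox2-/- group. Leaving out all mitochondrially encoded genes before normalization did not alter the count of 25 nuclear genes called higher.

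The balance between the genomes within a complex was taken in each library as a ratio of TPM values, which does not depend on scaling between libraries. The ratio still carries the trend with length in each library. Values with the length and GC trend removed are not given for the ratios or for mt-Cytb, mt-Atp6 and mt-Atp8. The ratio of mt-Cytb to the summed 9 nuclear complex III mRNAs was 8.38, 7.91, 9.33 and 8.46 in Hmox2+/+ hearts (mean 8.52 ± 0.593, SD, n = 4) and 1.99, 3.07 and 3.40 in Hmox2-/- hearts (mean 2.82 ± 0.739, n = 3). For ATP synthase, mt-Atp6 and mt-Atp8 over the 17 nuclear mRNAs gave 11.2, 7.75, 14.3 and 12.0 in Hmox2+/+ hearts and 2.95, 3.46 and 4.64 in Hmox2-/- hearts. In both complexes the mitochondrial share of the message was lower in every Hmox2-/- heart than in any Hmox2+/+ heart. Per-length values of the 204-base mt-Atp8 are unstable, and on estimated counts the ATP synthase ratio was 2.28 to 3.23 against 1.17 to 1.55.

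**Figure D3:**
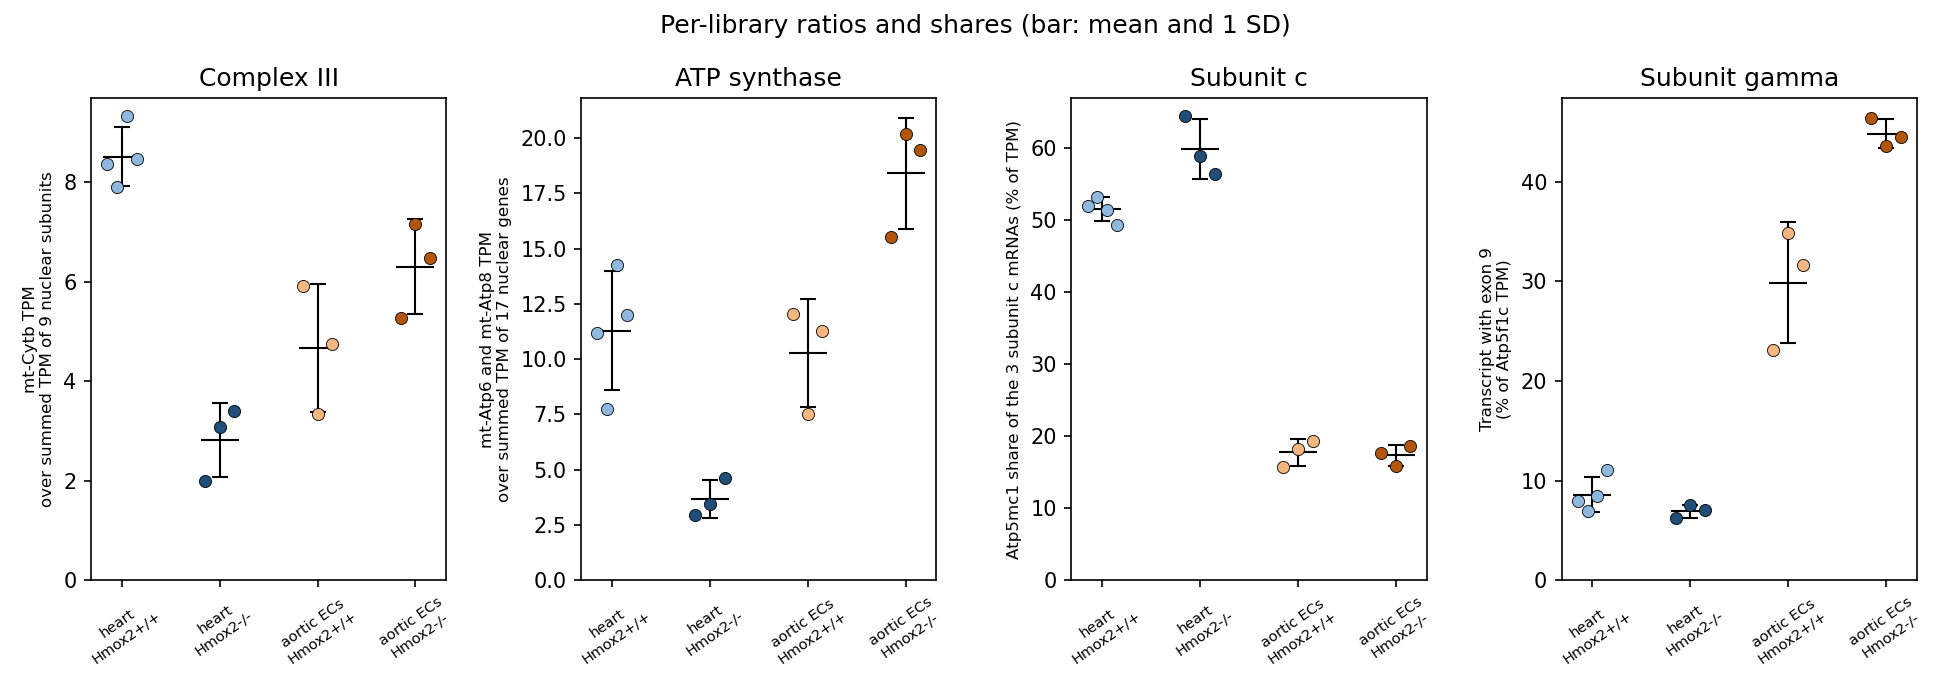
Per-library points with mean and 1 SD for the 4 groups: mitochondrial over nuclear TPM for complex III and for ATP synthase, the Atp5mc1 share of the 3 subunit c mRNAs, and the share of the transcript with exon 9 in Atp5f1c. The ratios are lower in all Hmox2-/- hearts than in all Hmox2+/+ hearts, and the exon 9 share is 43.6% to 46.4% in Hmox2-/- ECs against 23.1% to 34.9% in Hmox2+/+ ECs.

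In aortic ECs the nuclear genes pointed the opposite way, with fewer calls. Of the 31 genes 2 were lower in Hmox2-/- ECs and none was higher in edgeR, where 8.06% of 15301 genes were called lower and 10% higher. DESeq2 also called none higher. At an unadjusted p under 0.05, 20 of the 31 were lower and none was higher, against 17.2% and 18.1% of all genes. All 31 estimates were below 0, as were 51.4% of all genes, with 48.6% above, and their median was -0.51 against -0.02. None passed a log2 fold change of 1 in either direction, which 3.89% of all genes did downwards and 5.39% upwards. In 9 of the 31, every Hmox2-/- library lay below every Hmox2+/+ library, as did 18.7% of all genes, and in none was every one above, against 22.0%.

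Both called genes encode small subunits of complex III. Uqcr11 (chromosome 10, 80236542 to 80242676, minus strand) was 468, 458 and 319 CPM in Hmox2+/+ ECs and 228, 267 and 219 CPM in Hmox2-/- ECs. The groups did not overlap, and the log2 fold change was -0.80 ± 0.19 (edgeR adjusted p = 0.0277). Uqcrq (chromosome 11, 53318749 to 53322047, minus strand) was 383, 457 and 275 CPM in Hmox2+/+ ECs and 202.8, 244 and 214 CPM in Hmox2-/- ECs, -0.76 ± 0.20 (edgeR adjusted p = 0.0407). Here too the groups did not overlap. Neither call held with the length and GC trend removed, where Uqcr11 was at -0.44 ± 0.15 and Uqcrq at -0.48 ± 0.18 (edgeR adjusted p of 0.0867 and 0.11).

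The effect in aortic ECs was also related to length among short mRNAs. All genes under 500 bases had a median log2 fold change of -0.50 with 24.9% called lower, and the 5 members of that length had the same median of -0.50. Genes between 1500 and 2000 bases had a median of -0.03, against -0.59 for the 5 members among them. Pearson's r with log2 length was -0.39 and Spearman's rho -0.41 over the 31 members, against 0.12 and 0.11 over all genes tested. After removal of that trend and that with GC content, the median of the 31 was -0.31, and Atp5f1e, Atp5mc1, Atp5mc3 and Atp5mk were above 0.

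The other 29 genes did not pass the threshold in aortic ECs. Larger estimates were those of Uqcrc1 at -0.82 ± 0.26, Sdhb at -0.72 ± 0.23, Atp5f1b at -0.71 ± 0.27 and Atp5f1d at -0.67 ± 0.20 (edgeR adjusted p of 0.0656, 0.0653, 0.102 and 0.0572). Medians were -0.59 in complex II, -0.54 in complex III and -0.40 in ATP synthase. The smallest estimates were those of Atp5mc1 at -0.10 ± 0.13 and Atp5f1e at -0.18 ± 0.16, whose estimates in heart tissue were 0.87 and 1.36. Unlike in heart tissue, the longest members Sdha, Atp5f1a and Cycs were not near 0, at -0.60, -0.60 and -0.51.

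The number of calls in aortic ECs depended on the fit and on 1 library. Hmox2+/+ ECs 3 had the lowest CPM of the 3 Hmox2+/+ libraries in 29 of the 31 genes, at 11934 CPM summed over the set against 18470.5 and 17169 CPM. The Hmox2-/- libraries summed to 9441, 12229 and 10378 CPM. Without Hmox2+/+ ECs 3, 19 genes were called lower, and without any other single library none was. DESeq2 on all 6 libraries called 16 lower, as did edgeR with the hearts in the same fit. Of all genes, 1721 of 15688 were called lower without Hmox2+/+ ECs 3, 1943 of 15301 in DESeq2 and 2393 of 15938 with the hearts included. Called higher were 1875, 2090 and 1926 in the same order.

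Markers of several other cell types moved with genotype in the aortic EC libraries. Of 12 cardiomyocyte markers 11 were lower in Hmox2-/- ECs, with sums of 173 to 642 CPM in Hmox2+/+ and 12.5 to 16.8 CPM in Hmox2-/- ECs. All 7 skeletal muscle markers tested were lower, with sums of 21.1 to 104 and 1.84 to 2.03 CPM. Smooth muscle markers summed to 3464 to 6761 CPM in Hmox2+/+ ECs and to 3786, 1245 and 1155 CPM in Hmox2-/- ECs, with 3 of 8 lower. Brown adipocyte markers, from a cell type rich in these complexes, summed to 5279, 4287 and 3091 CPM in Hmox2+/+ ECs 1 to 3. In Hmox2-/- ECs 1 to 3 they summed to 2598, 4440.4 and 3970 CPM. Within each genotype these sums ranked like the summed members. White or shared adipocyte markers summed to 8966 to 13845 and 8835 to 10708 CPM and did not rank so. In each of these adipocyte lists 1 of 8 markers was lower and none higher. Of 10 endothelial markers 4 were higher and 1 lower, with sums of 3165 to 4619 CPM against 5529 to 6730.5 CPM, and 3 of 7 fibroblast and 4 of 8 macrophage markers were higher. The part of these cells in the subunit results was not tested.

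**Figure D4:**
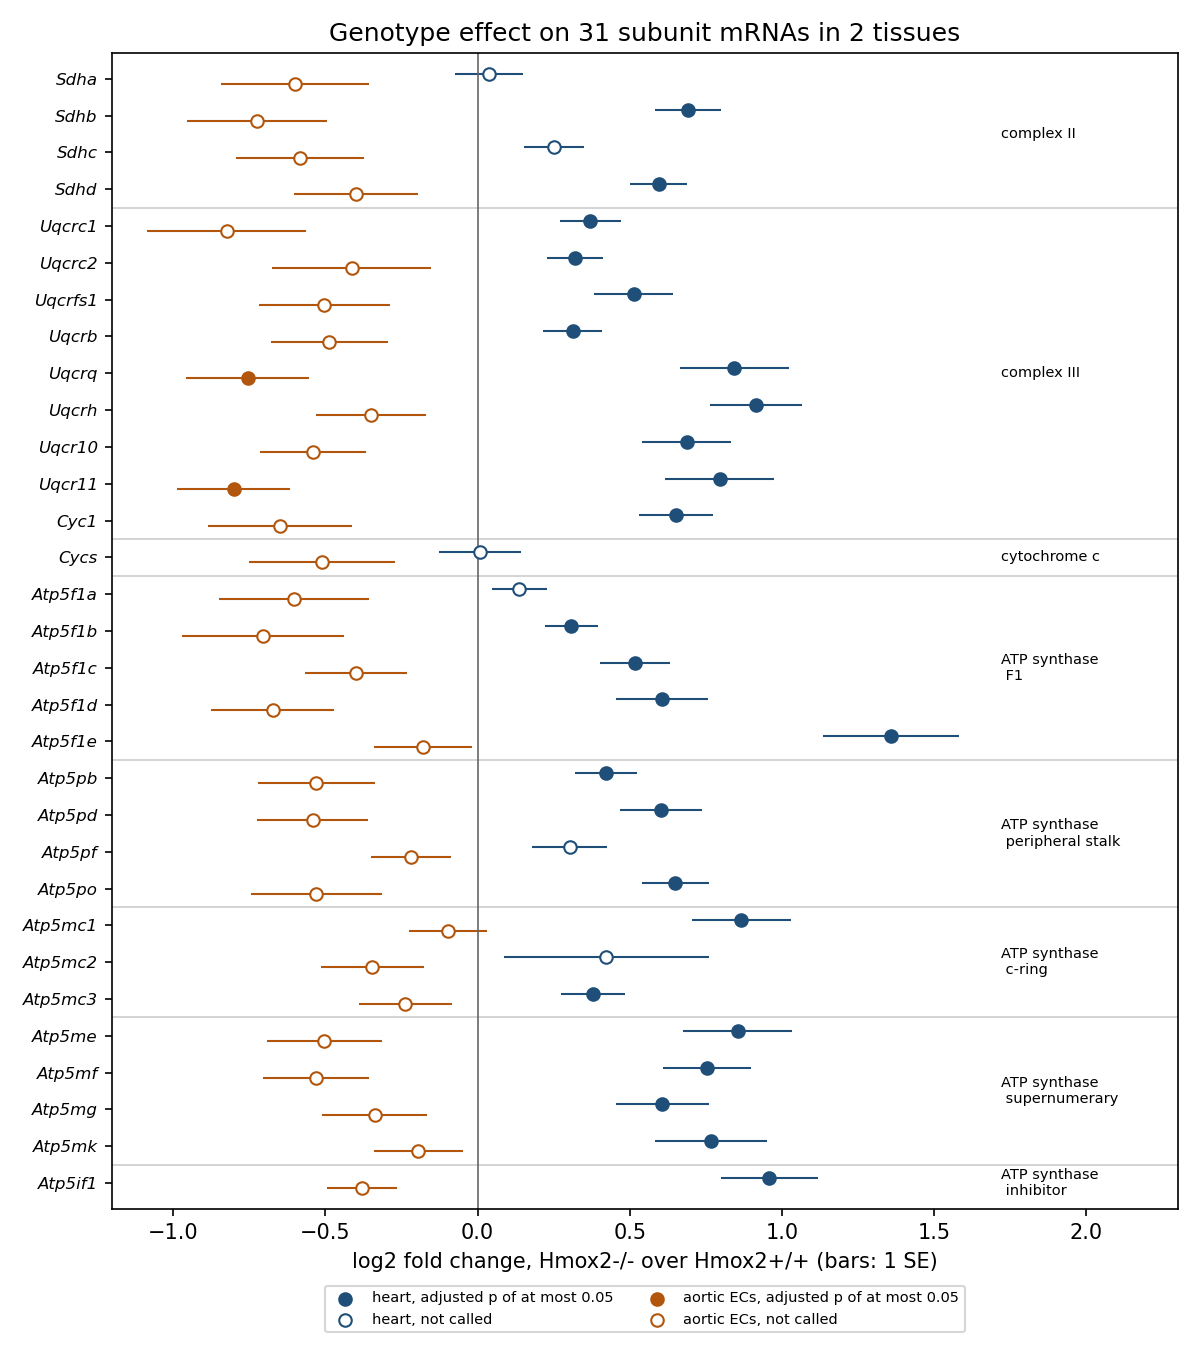
Log2 fold change of Hmox2-/- over Hmox2+/+ with 1 SE for each of the 31 mRNAs, in heart tissue (blue) and aortic ECs (orange), with filled symbols for an adjusted p of at most 0.05. In heart tissue 25 symbols are filled and all lie right of 0, and in aortic ECs all lie left of 0 with Uqcrq and Uqcr11 filled.

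The mitochondrially encoded partners were not called in aortic ECs. mt-Cytb was 48511, 27273 and 26553 CPM in Hmox2+/+ ECs and 23376, 39747 and 29785 CPM in Hmox2-/- ECs, so the groups overlapped widely. The ratio of mt-Cytb to the nuclear complex III mRNAs was 5.91, 3.35 and 4.75 in Hmox2+/+ ECs and 5.27, 7.15 and 6.49 in Hmox2-/- ECs, and also overlapped. For ATP synthase the ratio was 12.1, 7.50 and 11.3 in Hmox2+/+ ECs and 15.5, 20.2 and 19.5 in Hmox2-/- ECs, without overlap. Of the 31-base words of mt-Atp6, 99.5% also occur in the pseudogene Atp6-ps, so its level depends on how shared reads were split.

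The difference between the tissues was tested directly as an interaction, the heart effect minus the EC effect, in 1 edgeR fit over the 13 libraries. Of the 31 genes 28 were called, all with a more positive effect in heart tissue, where 16.2% of 15938 genes were called in that direction and 12.7% in the other. At a difference of at least 1 on the log2 scale, 19 were called upwards and none downwards, against 8.08% and 7.33% of all genes. At an unadjusted p under 0.05 the shares of all genes were 22.4% and 18.5%. All 31 differences were above 0, as were 51.4% of all genes, and the median was 1.05 against 0.03 over all genes. The differences were 1.64 ± 0.30 for Uqcrq, 1.63 ± 0.29 for Uqcr11, 1.57 ± 0.32 for Atp5f1e and 1.46 ± 0.25 for Sdhb (edgeR adjusted p of 0.00172, 0.00141, 0.00334 and 0.00141). The 3 genes that were not called were Sdha at 0.68 ± 0.27, Cycs at 0.56 ± 0.28 and Atp5mc2 at 0.83 ± 0.48. With the length and GC trend removed, 15 genes were called in the same direction. Of all 15938 genes, 2821 were then called in that direction and 1276 in the other, and the median difference was 0.13. Among the 15 were Sdhb at 0.93 ± 0.24, Cyc1 at 0.80 ± 0.25 and, newly called, Sdha at 0.81 ± 0.26 and Cycs at 1.40 ± 0.29. Atp5mc1 and Uqcr10 were at -0.0311 and -0.00279. In aortic ECs alone, Cycs was called lower with that trend removed, at -0.91 ± 0.24 (edgeR adjusted p = 0.0463), as were 1073 of 15301 genes. Shared reads limit the Cycs values. Gm10053, at -0.32 ± 0.25 without the removal, was not called in aortic ECs. Gm10108, 87.9% of whose words occur in Cycs, had 1351, 970 and 851 estimated counts in Hmox2+/+ ECs and 0 in the Hmox2-/- ECs.

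The subunit c mRNAs stood at different levels in the tissues. Per length, Atp5mc1 was 1320 to 1805 TPM in Hmox2+/+ hearts and 55.3 to 100.3 TPM in Hmox2+/+ ECs, and Atp5mc3 was 1269 to 1559 and 264 to 413 TPM. The summed subunit c mRNAs over the summed F1 mRNAs, looked at after the values were seen, had a ratio of 0.576 to 0.629 in the heart and of 0.0698 to 0.104 in aortic ECs of Hmox2+/+ mice. Atp5mc2 was the least abundant in both tissues, at 6.74 to 37.8 TPM in Hmox2+/+ hearts. Gm70834, 99.4% of whose words occur in Atp5mc2, was 236 to 541 TPM in all libraries, so that the level of Atp5mc2 depends on how the reads were split. With Gm70834 added, the ratio in Hmox2+/+ ECs was 0.134 to 0.187.

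Within the subunit c mRNAs, the share of Atp5mc1 was 52.0%, 53.3%, 51.5% and 49.3% of TPM in Hmox2+/+ hearts and 64.5%, 58.9% and 56.4% in Hmox2-/- hearts. Every Hmox2-/- heart lay above every Hmox2+/+ heart. The difference of 8.41 percentage points had an exact two-sided permutation p of 0.0571 (0.114 adjusted over the 2 tissues), the smallest that 4 against 3 libraries allow, so the design could not reach 0.05. In aortic ECs the shares were 15.7%, 18.3% and 19.3% in Hmox2+/+ and 17.6%, 15.8% and 18.7% in Hmox2-/- libraries, which overlapped (exact two-sided permutation p = 0.8). Atp5mc1 rose by 0.87 ± 0.16 and Atp5mc3 by 0.38 ± 0.10 on the log2 scale in heart tissue (edgeR adjusted p of 0.00335 and 0.0179), and Atp5mc1 also has the shorter mRNA, at 626 against 717 bases. Once the length and GC trend was removed, Atp5mc3 was called lower, at -0.21 ± 0.07 (edgeR adjusted p = 0.0459), and Atp5mc1 was not called, at 0.19 ± 0.07 (edgeR adjusted p = 0.0907).

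Muscle is known to skip the exon printed above for Atp5f1c. The transcript that contains it held 7.90%, 6.93%, 8.45% and 11% of the TPM of the gene in Hmox2+/+ hearts, against 6.25%, 7.53% and 7.05% without Hmox2, and the transcript without it held nearly all the rest. In aortic ECs the transcript with the exon held 23.1%, 34.9% and 31.6% in Hmox2+/+ libraries and 46.4%, 43.6% and 44.5% in Hmox2-/- libraries. The genotypes overlapped in heart tissue and did not overlap in aortic ECs. No test was run on these shares. Cardiomyocyte and skeletal muscle sums, given above, were lower in every Hmox2-/- EC library. The smooth muscle sum of Hmox2-/- ECs 1, with the highest exon share, was 3786 CPM, within the 3464 to 6761 CPM of Hmox2+/+ ECs. The part of muscle cells in these shares was not tested.

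Among proteins that build the complexes, 11 of 18 assembly factors were higher in Hmox2-/- hearts and 1 was lower, against 17.2% and 16.2% of all genes. For these factors and the carriers below, values with the length and GC trend removed are not given. Uqcc2, which stabilizes newly made cytochrome b, was 35.7 to 38.4 CPM in Hmox2+/+ hearts and 105, 73.7 and 54.6 CPM in Hmox2-/- hearts, 1.07 ± 0.17 on the log2 scale (edgeR adjusted p = 0.00156). Sdhaf4, which helps the flavoprotein join complex II, rose by 0.84 ± 0.14. Of the ADP and phosphate carriers and further subunits 5 of 6 tested were higher and none lower, led by the ADP/ATP carrier Slc25a5 at 1.14 ± 0.11 (edgeR adjusted p = 3.83e-05).

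Uqcc6, a small assembly factor of complex III, went against the other factors in heart tissue and was lower in both tissues. It was 5.67 to 6.90 CPM in Hmox2+/+ hearts and 1.82 to 2.29 CPM in Hmox2-/- hearts, -1.64 ± 0.17 (edgeR adjusted p = 8.3e-05). In aortic ECs it was 14.7, 13.3 and 9.83 CPM in Hmox2+/+ and 2.69, 2.11 and 2.61 CPM in Hmox2-/- libraries, -2.35 ± 0.22 (edgeR adjusted p = 0.00192). In both tissues every Hmox2-/- library lay below every Hmox2+/+ library. In aortic ECs 3 of 18 assembly factors were lower and none was higher, against 8.06% and 10% of all genes. The other 2 were Tmem242, which helps assemble the c ring, at -0.83 ± 0.15, and Uqcc1, the partner of Uqcc2, at -0.79 ± 0.21 (edgeR adjusted p of 0.0125 and 0.0391). Of the 5 carriers and further subunits tested there, only the ADP/ATP carrier Slc25a4 was lower, at -0.53 ± 0.15 (edgeR adjusted p = 0.0425), a gene named after its value was seen.

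Promoter sequences from RefSeq (GRCm38.p6, 250 bases before to 50 after the start) matched 23 of the 31 genes. They were searched on both strands for 4 words bound by regulators known for respiratory genes. The word GCGCATGC of NRF1 was in promoters of 7 of the 23 genes (30.4%) and of 3.05% of 27025 genes with a promoter in the table. CCGGAAG, the ETS word of GABPA, was in 9 (39.1%, against 9.93%), AAGATGGC of YY1 in 3 (13%, against 3.19%) and TCAAGGTCA of the estrogen-related receptors in 2 (8.70%, against 0.466%). These are matches of letters and no measurement of binding. The 27025 genes were not limited to genes expressed in these tissues, as the members are, and no share among expressed genes alone was taken. At least 1 word was in 15 of the 23 (65.2%, against 15.3%). The 4 genes with both an NRF1 and an ETS word are printed here with up to 20 bases on either side, with the words in capitals, read on either strand.
Sdhb, chr4:140961197-140961300, plus strand: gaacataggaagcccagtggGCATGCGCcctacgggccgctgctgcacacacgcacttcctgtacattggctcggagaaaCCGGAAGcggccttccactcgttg
Uqcr11, chr10:80406798-80406907, minus strand: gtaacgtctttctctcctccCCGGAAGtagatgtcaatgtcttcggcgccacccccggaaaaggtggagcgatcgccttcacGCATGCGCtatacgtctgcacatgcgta
Atp5me, chr5:108434370-108434469, minus strand: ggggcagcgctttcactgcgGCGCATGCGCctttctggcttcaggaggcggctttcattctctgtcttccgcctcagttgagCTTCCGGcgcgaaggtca
Atp5mg, chr9:44920928-44920992, minus strand: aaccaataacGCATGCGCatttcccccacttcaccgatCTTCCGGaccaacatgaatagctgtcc
All 4 genes were higher in Hmox2-/- hearts and had negative estimates in aortic ECs, and so had Atp5mc1 and Atp5po, in whose promoters none of the 4 words was found.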

How the data were processed

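The authors pseudoaligned paired reads of oligo-dT-selected, strand-kept libraries with Kallisto (version 0.44.0 in the submitters' processing notes), each library on its own. The deposited tables hold estimated counts and TPM per transcript, not normalized between libraries. The methods name a GENCODE mouse index on GRCm39, whereas the processing notes list mm10 and GRCh38.p13. Transcripts were matched to GENCODE M39 by stable identifier (97.2% of 118489), and rounded gene sums of the estimated counts were used. Counting ignored strand by default, so genes that overlap cannot be told apart.

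After filterByExpr with a minimum count of 10 and TMM scaling, the quasi-likelihood test of edgeR 4.0.16 (R 4.3.3) was run for each tissue separately and for the interaction of tissue and genotype. The biological coefficient of variation was 0.149 in heart tissue and 0.241 in aortic ECs. The labels number the replicates without saying how they were collected, so p-values measure the spread between these samples. They do not say which heart and ECs share a mouse, so all libraries entered as independent. The members and lists were chosen with earlier results of these data known. All members could be named, with mt-Cytb, mt-Atp6 and mt-Atp8, Hmox2, the cell type markers, and of the assembly factors and carriers the 3 largest called changes per tissue and direction.

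Alternatives were DESeq2 1.42.0, upper-quartile normalization, no filter, length-scaled TPM, the replicate number as a block, mitochondrially encoded genes left out, a length and GC offset, near-identical copies summed, all libraries in 1 fit and each library left out. Leaving out Hmox2-/- ECs 2 and 3, the offset without Hmox2-/- heart 1 and adding Gm70834 to Atp5mc2 were chosen after seeing the data. Hmox2-/- ECs 2 and 3 are the libraries in which Ddx3y was low. Fits were tested on simulated data. Figures used matplotlib 3.10.9, and exact permutation tests scipy.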

Additional observations from a re-analysis of the deposited data

Results flagged for a closer look

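Among 35 sets of 4 Hmox2+/+ hearts examined for a library far from the rest, 1 was found, where chance alone gives about 1 in 20. Atp5f1c was 885 CPM in Hmox2+/+ heart 4 against 836 to 842 CPM in the other 3, a gap of 0.878 of the range.

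The genotype effect differed between heart tissue and aortic ECs (edgeR interaction, adjusted p of at most 0.05) in 28 members. In complex II the differences, heart minus ECs on the log2 scale, were 1.46 for Sdhb, 0.88 for Sdhc and 1.04 for Sdhd. In complex III they were 1.23 for Uqcrc1, 0.77 for Uqcrc2, 1.06 for Uqcrfs1, 0.84 for Uqcrb, 1.64 for Uqcrq, 1.30 for Uqcrh, 1.27 for Uqcr10, 1.63 for Uqcr11 and 1.34 for Cyc1. In the F1 head they were 0.78 for Atp5f1a, 1.05 for Atp5f1b, 0.96 for Atp5f1c, 1.32 for Atp5f1d and 1.57 for Atp5f1e. In the stalk they were 0.99 for Atp5pb, 1.18 for Atp5pd, 0.56 for Atp5pf and 1.22 for Atp5po, and in the c ring 1.00 for Atp5mc1 and 0.65 for Atp5mc3. They were 1.40 for Atp5me, 1.32 for Atp5mf, 0.98 for Atp5mg, 1.00 for Atp5mk and 1.38 for Atp5if1. Of the mitochondrially encoded partners, mt-Atp8, which overlaps mt-Atp6, differed in the other direction, by -1.80. The differences of Sdhb, Sdhc, Sdhd, Uqcrc1, Uqcrfs1, Uqcrq, Uqcrh, Cyc1, Atp5f1c, Atp5pb and Atp5mf stayed past the threshold in all 21 alternatives run.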

How the results depend on the processing

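The length and GC offset left 9 members called in heart tissue (7 higher, 2 lower) with a median of 0.11, 1 in aortic ECs (Cycs, with neither Uqcr11 nor Uqcrq, and a median of -0.31) and 15 in the interaction, and in heart tissue without Hmox2-/- heart 1 it left 8 with a median of 0.11. Under it, heart estimates turned negative for Uqcrb (-0.21), Uqcr10 (-0.12), Uqcr11 (-0.0038), Atp5pd (-0.041), Atp5pf (-0.20), Atp5mc2 (-0.16), Atp5mc3 (-0.21), Atp5me (-0.038), Atp5mg (-0.065) and Atp5mk (-0.082), and without Hmox2-/- heart 1 they were -0.11, -0.074, -0.076, -0.016, -0.20, -0.079, -0.15, -0.090, -0.11 and -0.14 in the same order. EC estimates turned positive for Atp5f1e (0.25), Atp5mc1 (0.25), Atp5mc3 (0.0073) and Atp5mk (0.18), and differences between tissues negative for Uqcr10 (-0.0028), Atp5mc1 (-0.031), Atp5mc2 (-0.039), Atp5mc3 (-0.15) and Atp5mk (-0.25). The cause of the length trend was not tested.

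In aortic ECs, DESeq2 and all libraries in 1 fit each called 16 members lower, and without Hmox2-/- ECs 2 and 3 none was called. That fit has 1 Hmox2-/- library, assumed to vary like the others, and called 49 of 16390 genes, while the members' median was -0.68. Leaving out 1 library gave 18 to 27 calls in heart tissue (median 0.44 to 0.74), 0 to 19 in aortic ECs (median -0.67 to -0.40) and 24 to 29 in the interaction. Estimates near 0 crossed it: Sdha in heart tissue ran from -0.041 to 0.16, Cycs there from -0.16 to 0.10 (-0.013 with length-scaled TPM) and Atp5mc1 in aortic ECs from -0.19 to 0.0066. Of 25 heart calls, those of Sdhb, Sdhd, Uqcrh, Cyc1 and Atp5f1e held in all 17 alternatives, with smaller estimates under the offset.

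The EC difference in the Atp5mc1 share was -0.40 percentage points, 1.62 on estimated counts and -1.43 to 0.37 with 1 library left out (6.11 to 10.2 in heart tissue). The log2 difference in the mitochondrial to nuclear ratio of ATP synthase in heart tissue was -1.61, and -1.04 on estimated counts.

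Same-numbered libraries did not deviate together (correlations -0.03 to 0.08 in hearts and 0.04 to 0.18 in ECs). With the number as a replicate block, 17 members were called in heart tissue, 2 in aortic ECs and 23 in the interaction. With 3 or 4 libraries per group and 7268626 counts in Hmox2+/+ heart 1, small differences were not detectable.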
